A study of Mus musculus with 4 samples.

Results

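The nuclear genes of oxidative phosphorylation were taken as all protein-coding genes of the GENCODE M21 annotation whose symbol starts with Nduf, Uqcr, Cox4 to Cox8 or Atp5, together with Sdha, Sdhb, Sdhc and Sdhd. The rule uses names only and found 93 genes among the 34866 in the table. Of these, 36 encode subunits of complex I, 4 of complex II, 8 of complex III, 20 of complex IV and 16 of complex V, the ATP synthase. Another 9 carry such names without encoding a subunit, namely Ndufaf1 to Ndufaf8, which help to assemble complex I, and Atp5s, known as factor B of the ATP synthase.

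Bulk RNA-seq was available from 4 libraries of sorted B220+ IgM+ spleen cells from 2 mice with an IgM+ Tom+ lymphoma, called tumors #1 and #2. Both mice carried λ-MYC (a human MYC transgene under regulatory sequences of the immunoglobulin λ locus, which drives B cell lymphoma), a Cre knock-in allele and R26tdTom+/ki, a genotype abbreviated λ-MYC Tom+/ki. Cre switches on the red protein Tomato for good, so Tom+ cells, or the cells they descend from, have expressed Cre, and Tom- cells have not activated the reporter. From each mouse, 1 library of Tom+ and 1 of Tom- cells was made, with no treatment. The animals were killed when moribund, and their age and sex are not given in the sources used here. Each tumor is therefore 1 mouse, and no library from a mouse without the transgene was analysed here. The study asked how Tom+ lymphoma cells differ from Tom- cells of the same tumor.

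Oxidative phosphorylation passes electrons from NADH (through complex I) and succinate (through complex II) to ubiquinone, then through complex III, cytochrome c and complex IV to oxygen. Complexes I, III and IV pump protons across the inner mitochondrial membrane, and complex V uses their return to make ATP. Complex II is encoded by nuclear genes alone, whereas the other complexes also hold subunits encoded by mitochondrial DNA, so that products of both genomes meet in each of them. MYC is known to promote the expression of many nuclear genes of mitochondria.

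Expression was given in TPM (transcripts per 1000000), a unit that adjusts for transcript length and sums to 1000000 in every library, so levels of different genes can be compared but the number of reads is unknown. Differences are given on the scale of log2(TPM + 1); at low TPM this scale makes changes look smaller. Of the 93 genes, 88 passed the filter of at least 1 TPM in at least 2 libraries, and they were tested together with all 11339 genes that passed it. The other 5, Cox4i2, Cox7b2, Cox8b, Cox8c and Ndufa4l2, were listed at 0 in all 4 libraries. Wherever 4 TPM values are given for a gene, they follow the order tumor #1 Tom-, tumor #1 Tom+, tumor #2 Tom- and tumor #2 Tom+.

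The libraries were checked against markers of the sort and of other cells. All 7 B cell markers were present in every library, with summed levels of 1040 to 2881 TPM that were higher in tumor #2. Summed markers of T cells (5 genes) were at 0.398, 0.398, 8.27 and 3.93 TPM, with Cd3e and Cd4 at or near 0. Cd3d, at 0.329, 0.0513, 7.77 and 2.09 TPM, was the highest T cell marker in both libraries of tumor #2. Summed markers of myeloid cells (7 genes) were at 2.64, 4.71, 13.3 and 7.04 TPM, so both sums were highest in Tom- cells of tumor #2. Cd68 was at 1.92, 4.11, 4.58 and 6.41 TPM, and S100a8 and S100a9 exceeded 1 TPM only in Tom- cells of tumor #2. Erythroid markers (6 genes) summed to 21.5 and 17.6 TPM in tumor #1 and to under 1 TPM in tumor #2, with Hba-a1 and Hba-a2 at 0 in all libraries. Plasma cell markers (4 genes) summed to at most 20.1 TPM in 3 libraries and to 231 TPM in Tom+ cells of tumor #2, nearly all of it Jchain, at 209 TPM. Pseudogenes held 31.3%, 30.3%, 25.4% and 23.4% of all TPM and immunoglobulin genes 6.28%, 5.70%, 5.35% and 9.76%. In bulk RNA, fewer cells of a type and less RNA per cell cannot be told apart.

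The 88 genes were abundant, with a median of 94.5 TPM (mean over the 4 libraries) against 12.6 TPM for the 10066 nuclear protein-coding genes tested. A mean of at least 100 TPM was reached by 42 of the 88 (47.7%) and by 8.16% of those 10066 genes. Levels differed between the complexes, with a median of 63.7 TPM for complex I, 101 for complex II, 104 for complex III, 183 for the expressed genes of complex IV and 313 for complex V. The assembly factors and Atp5s were lower, at a median of 15.6 TPM. Summed over all 93 genes, expression was 16628, 17031, 14059.8 and 12408 TPM, or 1.66%, 1.70%, 1.41% and 1.24% of the library.

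**Figure D1:**
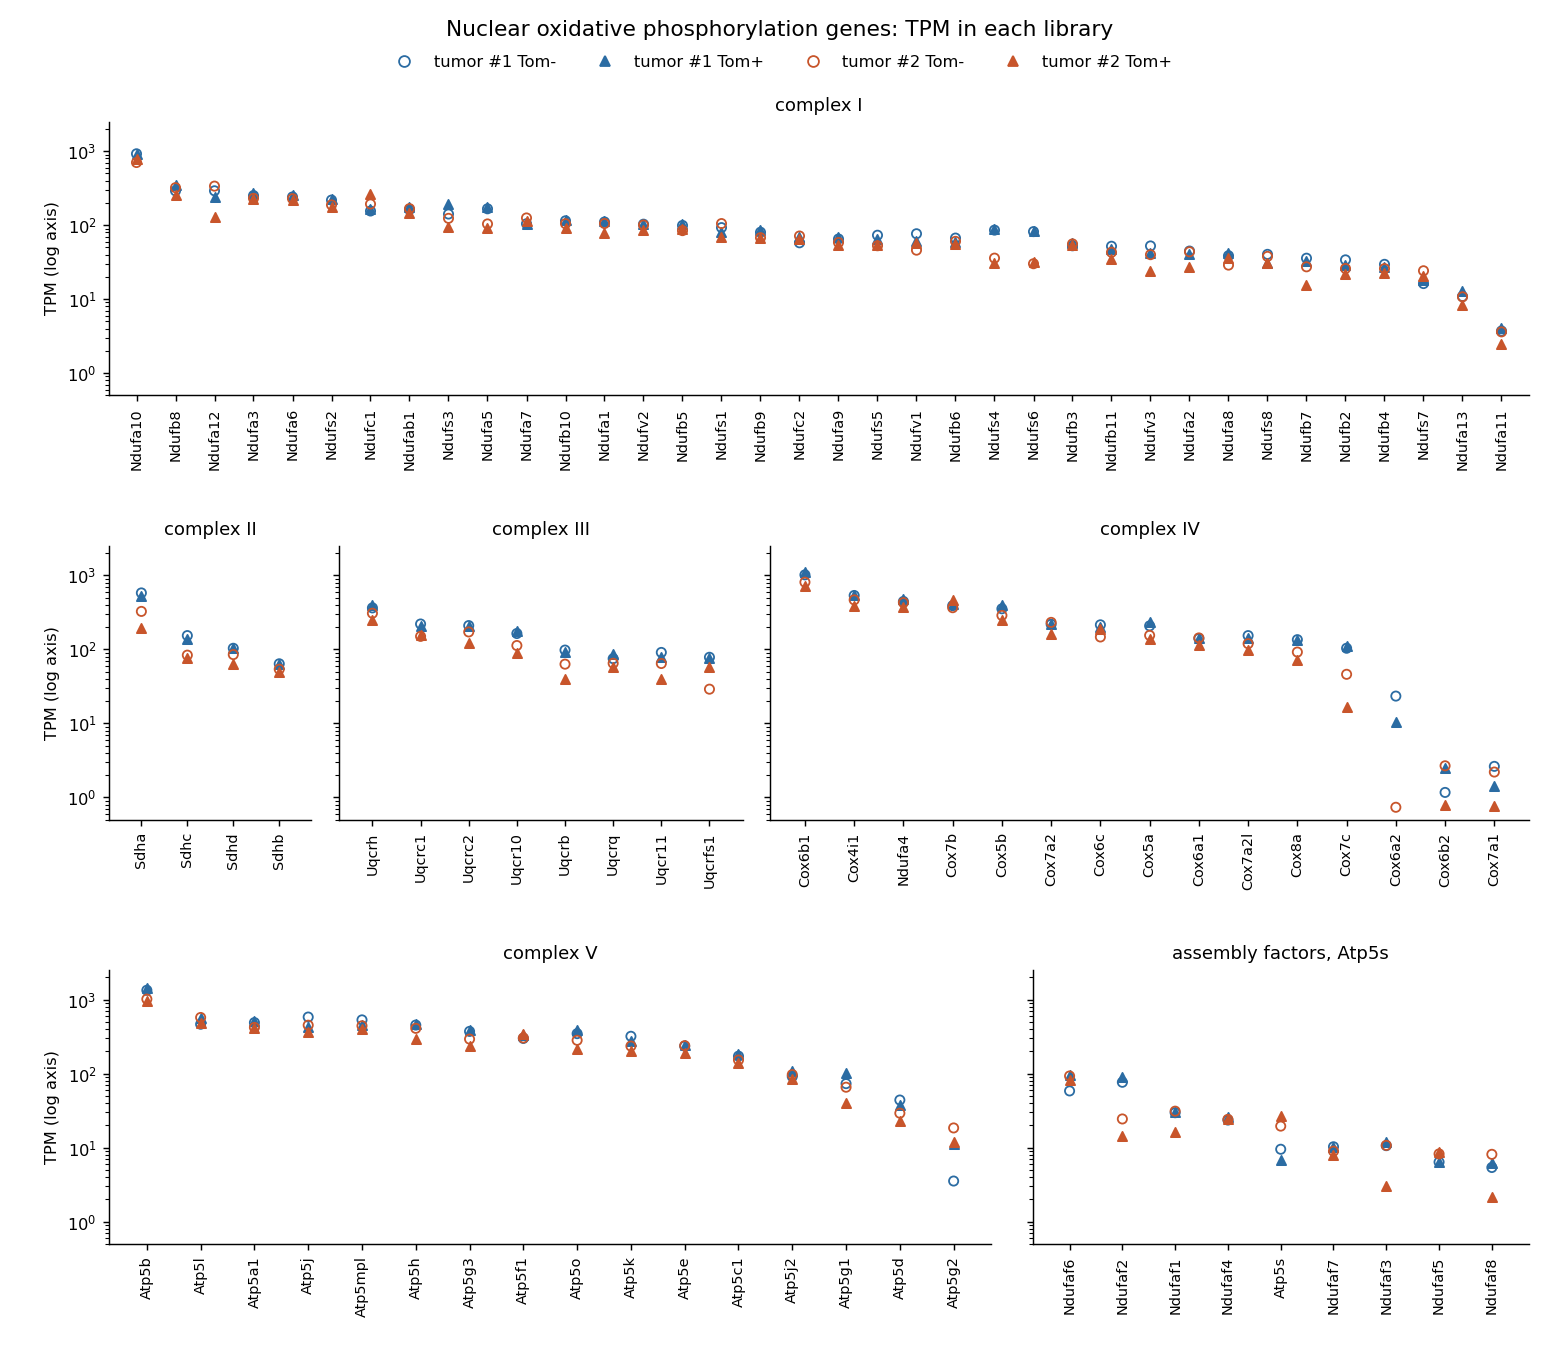
TPM of the 88 expressed genes on a log axis, 1 panel per complex, ordered by mean level. Each symbol is 1 library (circles Tom-, triangles Tom+, blue tumor #1, orange tumor #2), and the value of 0 for Cox6a2 in tumor #2 Tom+ cells is not drawn. Complex V holds the most abundant gene, Atp5b, and the orange symbols of Sdha, Ndufs4, Ndufs6, Cox7c, Cox6a2 and Ndufaf2 stand apart below the blue ones.

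Before the values of single genes, the sequences show what short reads can tell apart. Many of these genes have processed pseudogenes, copies of their mRNA inserted elsewhere in the genome. A transcript of Cox7c, a small structural subunit of complex IV (ENSMUSG00000017778, chr13:86044816-86046904, minus strand, GRCm38), and the pseudogene Gm12338 (chr11:75599763-75599954, minus strand) have the same 192 bases of coding sequence (GENCODE M21 transcripts), with the start and stop codons in capitals.
Cox7c: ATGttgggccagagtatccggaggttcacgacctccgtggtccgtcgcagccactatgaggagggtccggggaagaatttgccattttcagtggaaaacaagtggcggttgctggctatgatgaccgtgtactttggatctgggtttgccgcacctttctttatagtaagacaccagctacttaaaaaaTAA
Gm12338: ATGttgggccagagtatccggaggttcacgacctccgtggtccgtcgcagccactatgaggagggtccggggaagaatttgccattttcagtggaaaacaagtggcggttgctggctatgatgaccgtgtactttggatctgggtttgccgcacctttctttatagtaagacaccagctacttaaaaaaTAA
The 60-base reads of the study cannot be assigned to either of them within this stretch. The table lists Cox7c at 103, 112, 46.0 and 16.8 TPM and Gm12338 at 2818, 2634, 977 and 611 TPM, so most of the expression of this sequence carries the name of the pseudogene. Both were lower in both libraries of tumor #2 than in those of tumor #1.

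The coding sequence of Cox6c, another small subunit of complex IV (chr15:35925886-35938246, minus strand), is shown with that of Cox6c2 (chr12:56373593-56373823, minus strand), which the annotation lists as a pseudogene. Capitals mark the 7 bases that differ among 231, an identity of 97.0%.
Cox6c: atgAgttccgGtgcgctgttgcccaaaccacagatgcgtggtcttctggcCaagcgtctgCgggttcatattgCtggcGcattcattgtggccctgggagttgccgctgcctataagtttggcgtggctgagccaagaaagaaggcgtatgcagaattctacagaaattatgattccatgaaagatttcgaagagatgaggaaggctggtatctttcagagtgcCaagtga
Cox6c2: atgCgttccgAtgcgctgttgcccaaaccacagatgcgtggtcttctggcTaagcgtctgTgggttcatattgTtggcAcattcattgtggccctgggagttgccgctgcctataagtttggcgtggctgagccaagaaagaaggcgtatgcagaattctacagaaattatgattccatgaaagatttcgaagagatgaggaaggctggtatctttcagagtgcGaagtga
Counted from 1 at the A of the start codon, with the base of Cox6c first, the differences are A4C, G11A, C51T, C61T, C74T, G79A and C225G. Most lie toward the start, and 50% of all 60-base stretches of the coding sequences of Cox6c transcripts also occur in a pseudogene. Over whole Cox6c transcripts, 92.5% of the stretches occur in no other gene. Cox6c was listed at 214, 202, 147 and 187 TPM and Cox6c2 at 1282, 989, 847 and 695 TPM.

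Over all 93 genes, 38 had at least 1 annotated pseudogene that matched a transcript with at least 90% identity over at least 50% of the pseudogene's length, 104 copies in all. Of these copies, 46 were above 0 TPM in some library. In 29 genes some 60-base stretch of the coding sequence also occurred in a pseudogene, and in 10 of them over 50% of the stretches did. Over whole annotated transcripts less was shared. There, a median of 99.6% of the stretches of a gene occurred in no other gene, and 1 gene shared over 50%. The copies summed to 7898, 7938, 5206 and 4423 TPM, against 16628, 17031, 14059.8 and 12408 TPM for the genes themselves. For 8 genes (Cox7c, Atp5j, Cox6c, Ndufab1, Ndufb4, Atp5l, Atp5g2 and Ndufs5) the copies held more TPM than the gene, and the levels of these genes are uncertain. Atp5j, the F6 subunit of the ATP synthase stalk, was listed at 581, 420.2, 451 and 368 TPM beside 1276, 1377, 1209 and 769 TPM for Gm11966, a model of only 87 bases. Ndufab1, the mitochondrial acyl carrier protein in complex I, was listed at 162, 175, 167 and 145 TPM, and its copy Gm48789 at 590.3, 869.6, 479.9 and 745 TPM. Ndufb4 was listed at 29.5, 27.1, 25.8 and 22.9 TPM, and its copy Gm16056 at 744, 804, 524 and 268 TPM. TPM divides by the length of the model, so few reads can give such short models a large value.

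**Figure D2:**
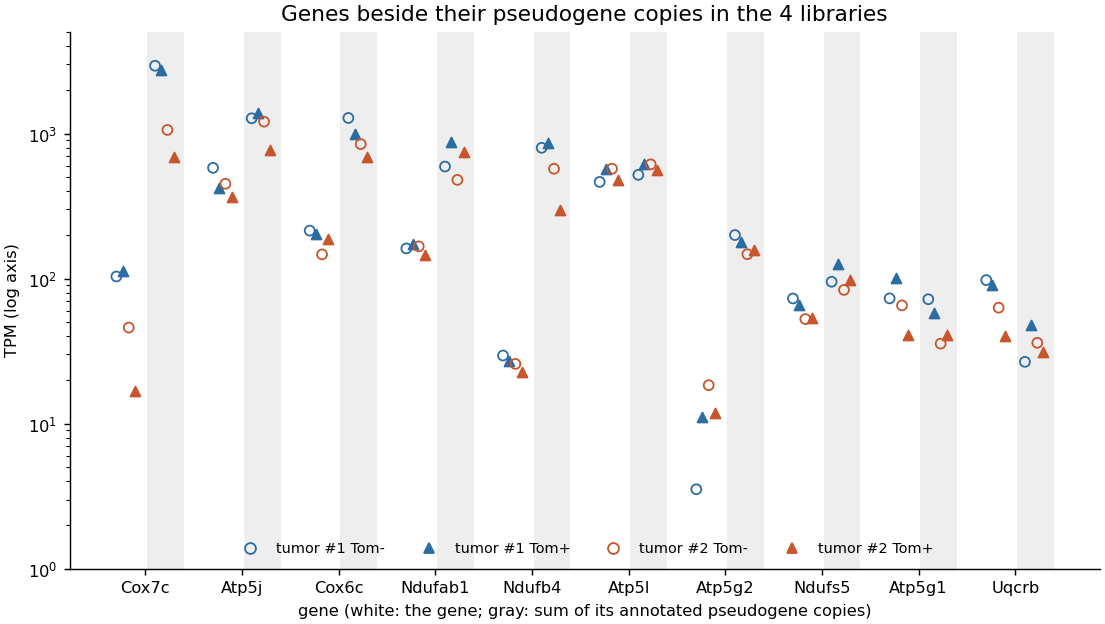
TPM (log axis) of the 10 genes with the most pseudogene expression. For each gene, the left group of symbols is the gene and the right group, on gray, the sum of its annotated pseudogene copies in the 4 libraries. The copies of Cox7c lie above the gene by more than 10 times in every library, whereas Atp5l and its copies lie at similar levels.

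The tumors were compared next. Levels of these genes were mostly lower in tumor #2 than in tumor #1, while genes at large were more often higher there. Both libraries of tumor #2 lay below both of tumor #1 for 58 of the 88 genes (65.9%), against 23.7% of all 11339 genes tested. The opposite order held for 6 of the 88 (6.82%), against 44.8% of all genes. The median difference, tumor #2 minus tumor #1, was -0.31 for the 88 genes and 0.20 for all genes. With 1 mouse per tumor no test was made, and the difference between the mice cannot be told apart from any difference in how their cells were collected.

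A second background had a floor of abundance only and was not matched to the levels of the 88 genes. Among nuclear protein-coding genes with a mean of at least 20 TPM, 32.8% of 3791 lay lower in tumor #2 without overlap, and 54 of the 76 genes of oxidative phosphorylation at that level did so. The median differences were 0.041 for the 3791 genes and -0.33 for the 76. The lower levels were also present in Tom- libraries alone, where the median was -0.19 against 0.23 for all genes, and among Tom+ libraries alone, where it was -0.41 against 0.19. Among the 59 genes with no coding stretch shared with a pseudogene, 39 lay lower without overlap and the median was -0.30. The size depended on the scaling. With libraries scaled by trimmed means, the median of all genes moved from 0.20 to -0.010 and that of the 88 genes to -0.54, whereas with TPM recomputed over nuclear protein-coding genes without immunoglobulin genes they were 0.31 and -0.23. Relative to all genes, the median of the 88 was -0.51, -0.53 and -0.54 in these 3 scalings.

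Each complex showed the same direction to a different extent. The summed TPM of tumor #2 was 84.8% of that of tumor #1 for complex I, 53.8% for complex II, 67.9% for complex III, 77.8% for complex IV and 80.5% for complex V. Lower levels without overlap were seen for 24 of 36 genes of complex I, 4 of 4 of complex II, 8 of 8 of complex III, 10 of 15 of complex IV, 10 of 16 of complex V and 2 of 9 assembly factors. The median differences were -0.28, -0.67, -0.62, -0.34, -0.28 and -0.26 in the same order. Of all genes tested, 23.7% lay lower in tumor #2 without overlap. The assembly factors with Atp5s were near that share (22.2%), and 2 genes of this group were higher in tumor #2 without overlap.

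In complex I, the 7 core subunits that carry out catalysis had a median difference of -0.15 and the 29 supernumerary subunits, which surround the core, one of -0.29. Ndufa10, the most abundant gene of the complex, was at 920.4, 913, 701 and 783 TPM, so that it was lower in tumor #2 without overlap. Ndufb8, an accessory subunit of the membrane arm, was at 291, 345, 321 and 258 TPM, and its tumors overlapped. Ndufs6 and Ndufs4 differed the most. Ndufs6, an accessory subunit of the part of the enzyme that binds NADH, was at 81.7, 83.3, 30.1 and 31.8 TPM, a difference between the tumors of -1.39. Ndufs4, an accessory subunit of the same part, was at 85.6, 87.9, 35.8 and 31.0 TPM, a difference of -1.35. For both genes the Tom+ and Tom- libraries of a tumor lay close together and the tumors far apart.

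Ndufc1, a small membrane subunit, was the gene of complex I with the largest difference in the opposite direction, at 155, 164, 193 and 259.9 TPM (0.49). Core subunit Ndufs7, which holds an iron-sulfur cluster near the ubiquinone site, was also higher in tumor #2, at 16.2, 18.2, 24.2 and 20.3 TPM (0.35). The lowest levels were those of Ndufa13 and Ndufa11, both accessory subunits. Ndufa13 was at 10.9, 12.9, 10.7 and 8.37 TPM and Ndufa11 at 3.70, 4.05, 3.61 and 2.47 TPM. For both, the Tom- library of tumor #2 lay just below that of tumor #1.

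In complex II, which links the citric acid cycle to the chain, all 4 genes were lower in tumor #2 without overlap. Sdha, the flavoprotein that oxidizes succinate (ENSMUSG00000021577, chr13:74322254-74350280, minus strand), was at 579, 531, 326 and 196 TPM, the largest difference of the complex (-1.13). Sdhb, the iron-sulfur subunit, was at 63.8, 64.2, 53.9 and 49.5 TPM, a difference of -0.30. The membrane anchor Sdhc was at 153, 136, 83.5 and 76.2 TPM (-0.85), and the anchor Sdhd at 103, 105, 85.0 and 63.6 TPM (-0.50). Sdha was the most abundant gene of the complex in every library.

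All 8 genes of complex III were lower in tumor #2 without overlap, with differences from -0.91 to -0.40. The most abundant was Uqcrh, the hinge protein next to cytochrome c1, at 363, 403, 308 and 253 TPM. Core proteins Uqcrc1 and Uqcrc2 were at 220.1, 207, 149.8 and 158 TPM and at 209.6, 205, 172 and 120.4 TPM. Uqcrfs1, the Rieske iron-sulfur protein that passes electrons to cytochrome c1, was at 78.2, 77.3, 29.0 and 57.8 TPM, and its value in Tom- cells of tumor #2 was the lowest of the complex in any library. Uqcr11, a small subunit, was at 90.9, 78.2, 64.4 and 40.0 TPM.

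Complex IV holds tissue-specific isoforms, and here the isoforms used by most tissues prevailed. Cox4i1 was at 535, 543, 466 and 389 TPM and Cox6b1 at 1016, 1112, 809 and 724 TPM, both lower in tumor #2 without overlap. Of their counterparts, Cox4i2, an isoform of lung, was at 0, and Cox6b2, an isoform of testis, was at 1.17, 2.46, 2.67 and 0.777 TPM. Cox8a was at 135, 134, 91.9 and 71.6 TPM, with the muscle isoform Cox8b and the testis isoform Cox8c at 0. Cox7b was at 389, 416, 365 and 458 TPM, with its testis counterpart Cox7b2 at 0. Ndufa4, now placed in complex IV, was at 443, 477, 428 and 376 TPM, with its paralog Ndufa4l2, known to be induced by hypoxia, at 0.

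The heart and muscle isoforms Cox6a2 and Cox7a1 were detected at low levels. Cox6a2 was at 23.4, 10.5, 0.734 and 0 TPM and its counterpart Cox6a1 at 140.1, 141, 143 and 113 TPM. Cox6a2 thus made up 14.3% and 6.97% of the TPM of this pair in tumor #1 and 0.512% and 0% in tumor #2, the largest difference between the tumors of any of the 88 genes (-3.67, or -5.77 with a constant of 0.1 added to TPM). The erythroid markers given above were also higher in tumor #1, with Hbb-bs at 18.8, 16.1, 0 and 0.699 TPM, and their part in this result was not tested. Cox7a1 was at 2.62, 1.41, 2.20 and 0.766 TPM beside 218, 223, 231 and 162 TPM for Cox7a2, the isoform of most tissues. Cox7a2l, a relative of Cox7a2 that joins complexes III and IV in supercomplexes, was at 153, 140.2, 119 and 97.3 TPM, lower in tumor #2 without overlap.

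In complex V, Atp5b, the catalytic β subunit, was the most abundant of all 93 genes, at 1337, 1422, 1015 and 968 TPM. Its partner Atp5a1, the α subunit, was at 489, 518, 420.1 and 414 TPM. Of the 5 genes of the F1 head, 4 were lower in tumor #2 without overlap, these included, and Atp5e overlapped. Atp5d, the δ subunit and the lowest of the F1 genes, was at 43.9, 37.5, 29.2 and 22.8 TPM. Atp5l, the g subunit in the membrane, was at 464, 572, 573 and 481 TPM and did not separate the tumors (0.027).

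The genes Atp5g1, Atp5g2 and Atp5g3 encode the same mature c subunit of the rotating ring. Atp5g3 supplied most of their TPM (77.5% to 82.9% in the 4 libraries), at 372, 385, 293 and 239 TPM. Atp5g1 was at 73.1, 101, 65.4 and 40.6 TPM, and Atp5g2 at 3.53, 11.0, 18.4 and 11.8 TPM. Atp5g1 and Atp5g3 were lower in tumor #2 without overlap, and Atp5g2 was higher (1.09). The latter shares 99.2% of its coding stretches with pseudogenes, and its copy Gm10175 was at 199.9, 180.0, 147 and 129.7 TPM, so its low level is uncertain.

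Among the assembly factors, Ndufaf2, which binds to a late form of complex I, was at 76.3, 90.8, 24.4 and 14.4 TPM, a difference of -2.09. Ndufaf6 was at 58.3, 95.4, 92.8 and 80.9 TPM and Ndufaf1 at 29.6, 30.4, 31.1 and 16.3 TPM, and neither separated the tumors. Ndufaf5, which modifies the core subunit Ndufs7, was higher in tumor #2, at 6.38, 6.29, 8.22 and 8.67 TPM (0.36), and its partner Ndufaf8 was at 5.38, 6.25, 8.11 and 2.18 TPM. Atp5s was at 9.49, 6.87, 19.5 and 26.5 TPM and was higher in tumor #2, the largest difference in this direction (1.39).

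The position of the genes in the genome was then examined. Chromosome 13 carries 7 of the 88 genes, and all 7 were lower in tumor #2 without overlap. In order along the chromosome (GRCm38, all on the minus strand) these are Uqcrfs1 (chr13:30540308-30545362), Uqcrb (chr13:66900617-66905378), Ndufs6 (chr13:73319838-73328542), Sdha (chr13:74322254-74350280), Cox7c (chr13:86044816-86046904), Ndufaf2 (chr13:108002715-108158623) and Ndufs4 (chr13:114287795-114388258). Their differences were -0.91, -0.89, -1.39, -1.13, -1.91, -2.09 and -1.35, with a median of -1.35. Uqcrb, which helps to bind ubiquinone in complex III, was at 97.7, 91.0, 63.1 and 40.3 TPM.

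Other genes of chromosome 13 were also lower in tumor #2. Of its 385 protein-coding genes tested, 57.4% lay lower without overlap, with a median of -0.54, whereas the medians of the other 19 chromosomes ranged from 0.12 to 0.59. Of the 114 with a mean of at least 20 TPM, 75.4% lay lower, with a median of -0.87. The shift was present in Tom- libraries (median of the 385 genes -0.55) and in Tom+ libraries (-0.47). The regulator Mterf3, which also lies on this chromosome, did not share it, at 42.3, 45.7, 46.5 and 40.4 TPM. The copy number of chromosome 13 was not measured.

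Lower levels were also seen on the other chromosomes. Of the 81 genes on other chromosomes, 51 lay lower in tumor #2 without overlap, against 22.1% of the 9681 nuclear protein-coding genes outside chromosome 13, and the medians were -0.30 and 0.22. On 16 of the 18 other chromosomes that carry at least 1 of the genes, the median of these genes was below 0.

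**Figure D3:**
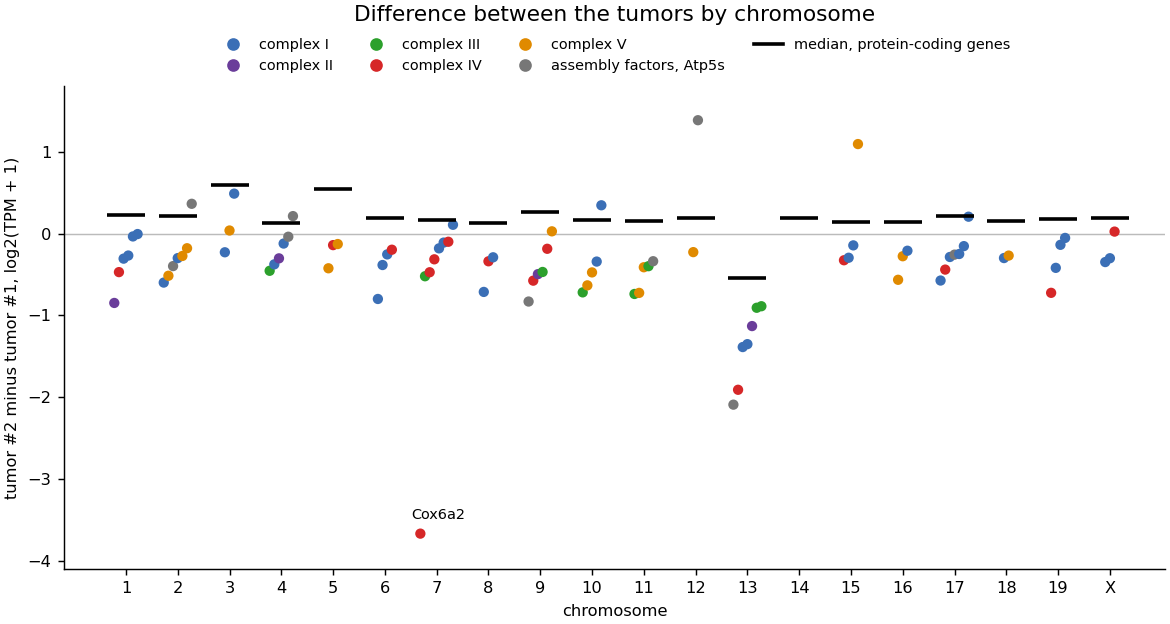
Difference between the tumors (mean of the 2 libraries of tumor #2 minus that of tumor #1, log2(TPM + 1)) by chromosome. Points are the 88 genes colored by complex, and black bars the median of all tested protein-coding genes of the chromosome. The 7 genes of chromosome 13 lie from -2.09 to -0.89, below its median of -0.54, and most points on the other chromosomes lie below the bars there.

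The promoters of the genes were searched for short motifs, in 300 bases from 250 before to 50 after the start (RefSeq, GRCm38.p6), on both strands. A promoter was matched for 74 of the 93 genes and for 27025 genes in all. The motif of NRF1 (GCGCATGC), a factor known for driving nuclear genes of mitochondria, was found in 12 of the 74 promoters (16.2%), against 3.05% of all genes with a promoter. That of GABPA (CCGGAAG), also known as NRF2, was found in 18 (24.3%), against 9.93%, and that of YY1 (AAGATGG) in 11 (14.9%), against 7.28%. The motif of estrogen-related receptors (AAGGTCA) was found in 8 (10.8%), against 5.38%. The E box CACGTG, which MYC and MAX bind, was found in 5 (6.76%), against 8.09%. Over the 17491 protein-coding genes with a promoter, the shares were 3.93%, 12.9%, 7.18%, 4.73% and 8.91% in the same order of motifs.

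The following promoters are shown with every match to these 5 motifs in capitals. Atp5k and Ndufa6 are the second and the third most abundant genes with an NRF1 match, after Atp5l, and Ndufs6 and Cox7c lie on chromosome 13. In Atp5k (chr5:108434350-108434649, minus strand), the NRF1 motif is present on both strands in an overlapping run, followed by a GABPA and an estrogen-related receptor match. The capitals in Ndufa6 (chr15:82354242-82354541, minus strand) are an NRF1 match, and those in Ndufs6 (chr13:73328433-73328732, minus strand) and Cox7c (chr13:86046746-86047045, minus strand) are YY1 matches.
Atp5k: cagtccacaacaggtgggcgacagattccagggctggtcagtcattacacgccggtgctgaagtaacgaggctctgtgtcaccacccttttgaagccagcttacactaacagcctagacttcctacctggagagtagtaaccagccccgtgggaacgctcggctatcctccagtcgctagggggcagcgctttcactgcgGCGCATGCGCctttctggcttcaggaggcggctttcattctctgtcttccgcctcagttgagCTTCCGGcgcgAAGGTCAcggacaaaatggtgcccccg
Ndufa6: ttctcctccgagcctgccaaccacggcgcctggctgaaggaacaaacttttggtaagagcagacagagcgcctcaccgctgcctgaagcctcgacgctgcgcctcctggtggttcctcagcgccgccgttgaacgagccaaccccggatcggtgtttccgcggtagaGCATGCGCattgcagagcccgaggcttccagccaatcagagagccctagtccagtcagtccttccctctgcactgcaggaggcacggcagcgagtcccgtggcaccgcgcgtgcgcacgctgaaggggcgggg
Ndufs6: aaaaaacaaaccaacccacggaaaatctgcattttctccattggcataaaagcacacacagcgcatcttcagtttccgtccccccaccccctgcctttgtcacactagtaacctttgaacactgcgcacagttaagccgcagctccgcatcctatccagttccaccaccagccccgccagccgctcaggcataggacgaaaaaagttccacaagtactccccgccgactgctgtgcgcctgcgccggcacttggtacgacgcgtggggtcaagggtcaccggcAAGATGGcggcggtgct
Cox7c: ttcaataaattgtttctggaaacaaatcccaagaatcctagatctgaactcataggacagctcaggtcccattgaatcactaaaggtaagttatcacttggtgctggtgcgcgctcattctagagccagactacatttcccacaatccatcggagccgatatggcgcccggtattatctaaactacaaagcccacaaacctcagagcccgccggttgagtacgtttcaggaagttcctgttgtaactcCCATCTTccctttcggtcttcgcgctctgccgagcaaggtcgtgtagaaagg
The 12 genes with an NRF1 match had a median difference between the tumors of -0.22, and 7 of them lay lower in tumor #2 without overlap. For the 60 tested genes with a promoter but no such match, the median was -0.35, with 40 lower. None of the 6 promoters on chromosome 13 that were matched held the NRF1 motif. Nrf1 itself was at 17.7, 19.9, 12.9 and 14.4 TPM and Gabpa at 71.2, 57.9, 38.7 and 40.9 TPM, and both were lower in tumor #2 without overlap. Yy1 was at 42.5, 36.1, 43.3 and 42.6 TPM, higher in tumor #2 without overlap by a small amount (0.13). The related genes Gabpb1 and Gabpb2 were lower (-0.32) and higher (0.79) in tumor #2 without overlap.

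The study was designed to set Tom+ cells against the Tom- cells that shared their tumor. None of the 88 genes passed an adjusted p-value of 0.05 by limma with the tumor as a blocking factor, and 0% of all 11339 genes did (lowest adjusted p-value 0.936). With 1 residual degree of freedom, few adjusted calls were possible. The study itself reported differentially expressed genes between Tom+ and Tom- cells, from a paired test on counts (edgeR). At an unadjusted p-value under 0.05, 0 of the 88 were higher in Tom+ cells (2.04% of all genes) and 2 were lower (2.64% of all genes). These 2 were Atp5j and Cox6a2. Atp5j was lower in Tom+ cells of both tumors, with a difference of -0.38 ± 0.12 (log2 difference ± SE, limma, unadjusted p = 0.0487, adjusted p = 0.936). The unadjusted p-value was no longer under 0.05 when Atp5j was summed with its copy Gm11966. That copy is a model of 87 bases, so few reads can give it a large TPM. Of the stretches of whole Atp5j transcripts, 92.4% occur in no other gene. How reads were divided between Atp5j and Gm11966 was not tested. Summed with the copy (1857, 1797, 1660.0 and 1137 TPM), the difference was -0.047 in tumor #1 and -0.55 in tumor #2, and the unadjusted p-value by limma was 0.185. Cox6a2 differed by -0.94 ± 0.23 (limma, unadjusted p = 0.0223, adjusted p = 0.936), and was also lower in Tom+ cells of both tumors. Its size rested on the constant added to TPM, since tumor #2 was at 0.734 and 0 TPM, and with a constant of 0.1 the difference was -2.10.

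Over the 88 genes, the standard error of the difference had a median of 0.16, with 2 mice behind each value. The median difference, Tom+ minus Tom-, was -0.079 against -0.033 for all genes. By complex, it was -0.048 for complex I, -0.17 for complex II, -0.089 for complex III, -0.16 for complex IV, -0.11 for complex V and -0.085 for the assembly factors. These medians rested on tumor #2, where they were -0.18, -0.27, -0.30, -0.29, -0.27 and -0.20 in the same order. In tumor #1 alone, the medians of complexes I, IV and V and of the assembly factors were above 0 (0.039, 0.027, 0.082 and 0.13), and those of complexes II and III were -0.058 and -0.025. Lower levels in Tom+ cells of both tumors were seen for 25 genes (28.4%, against 29.5% of all genes) and higher levels in both for 7 (7.95%, against 21.6%).

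Of the genes with 1 direction in both tumors, the lowest in Tom+ cells after Cox6a2 were Ndufa12, Cox7a1, Ndufv3 and Ndufb7. Ndufa12, an accessory subunit of complex I, was at 291, 243, 337 and 130.3 TPM, a difference of -0.81 ± 0.33. Ndufv3, a subunit of the part that binds NADH, was at 52.3, 41.9, 39.9 and 24.3 TPM (-0.50 ± 0.18), and Ndufb7 at 35.7, 33.0, 27.3 and 15.4 TPM (-0.45 ± 0.24). For Cox7a1 the difference was -0.72 ± 0.24, and -1.13 with a constant of 0.1 added to TPM. The largest values in the other direction were 0.25 ± 0.15 for Ndufc1, 0.22 ± 0.16 for Ndufa8, 0.21 ± 0.13 for Cox7b, 0.16 ± 0.11 for Atp5f1 and 0.080 ± 0.16 for Ndufaf4. Ndufa8, an accessory subunit of complex I, was at 38.5, 41.8, 28.8 and 36.4 TPM, Atp5f1, the b subunit of the stalk, at 299, 331, 303 and 343 TPM, and Ndufaf4, an assembly factor of complex I, at 23.5, 26.2, 24.1 and 24.3 TPM.

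The tumors differed in the direction of the change. In tumor #1, 55 of the 88 genes were higher in Tom+ cells (48.6% of all genes were), with a median of 0.043 against -0.0029 for all genes. In tumor #2, 73 of the 88 were lower in Tom+ cells (56.6% of all genes were), with a median of -0.21 against -0.057. Among nuclear protein-coding genes with a mean of at least 20 TPM, 61.8% were lower in Tom+ cells of tumor #2, and 63 of the 76 genes of oxidative phosphorylation at that level were. With TPM recomputed over nuclear protein-coding genes, 66 of the 88 remained below 0 in tumor #2, against 46.6% of all genes in that scaling. The medians were -0.11 for the 88 and 0.028 for all genes. Tom+ cells of tumor #2 were also the library with the highest Jchain and the highest immunoglobulin share, given above, and their part in this result was not tested. Each tumor gives 1 library per group here, so the difference between the tumors was not tested.

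**Figure D4:**
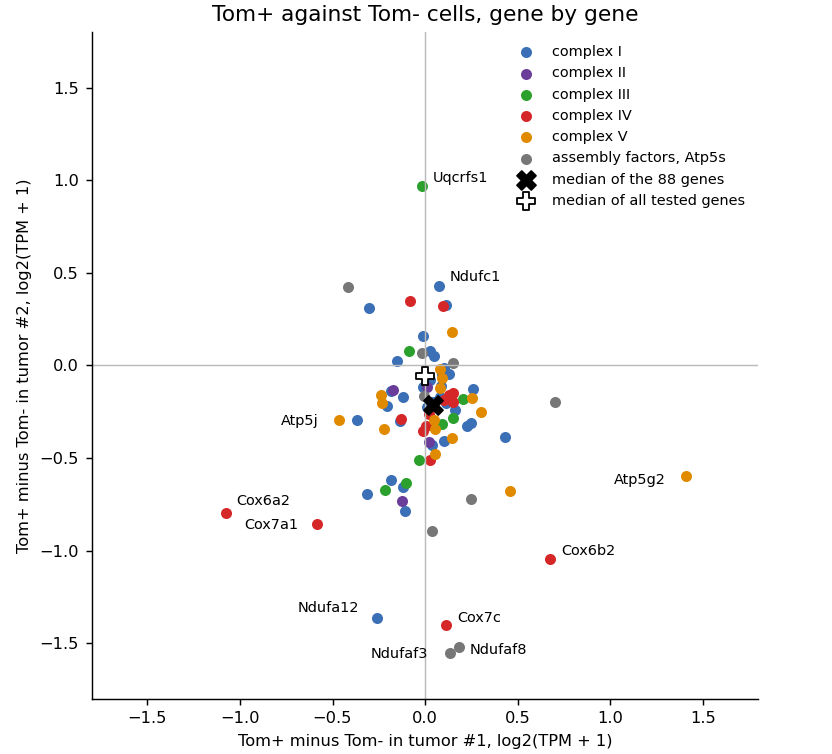
Tom+ minus Tom- in tumor #1 (horizontal axis) and tumor #2 (vertical axis), log2(TPM + 1), for the 88 genes colored by complex. The black cross is their median (0.043 and -0.21) and the white plus sign the median of all tested genes (-0.0029 and -0.057). Most points lie below the horizontal line, and Cox6a2 lies farthest to the left in tumor #1.

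The 13 subunits encoded by mitochondrial DNA differed between the tumors in the opposite direction. They summed to 66124, 86662, 144452 and 156071 TPM, or 6.61%, 8.67%, 14.4% and 15.6% of the library. A large part of these sums was mt-Atp8, at 28346, 33377, 74712 and 83642 TPM. Beside it, mt-Atp6 was at 7888, 10696.5, 18769 and 19114 TPM. TPM divides by the length of the model, and the part of this in the level of mt-Atp8 was not tested. Of the 13, mt-Atp8 also had the largest difference between the tumors (1.36). Of the 13, 12 were higher in tumor #2 without overlap (44.8% of all genes were), with a median difference of 0.67 against 0.20 for all genes. Between Tom+ and Tom- cells, 11 of the 13 were higher in Tom+ cells of both tumors (21.6% of all genes were), and 0 had an unadjusted p-value under 0.05 by limma. The median of mitochondrially encoded subunits of complex I was 20.5, 24.8, 50.3 and 45.8 times that of its nuclear subunits in the 4 libraries. For complex IV it was 37.6, 51.3, 68.6 and 93.4 times, with the isoforms at 0 included, which lowers the nuclear median. For complex V, with only 2 mitochondrial genes (mt-Atp6 and mt-Atp8), this ratio was 54.4, 61.7, 163 and 227. A larger mitochondrial share lowers the TPM of every other gene, and the values over nuclear protein-coding genes alone, given above, leave those genes out. Of the TPM of all nuclear protein-coding genes, the 93 made up 2.99%, 3.09%, 2.60% and 2.46%.

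**Figure D5:**
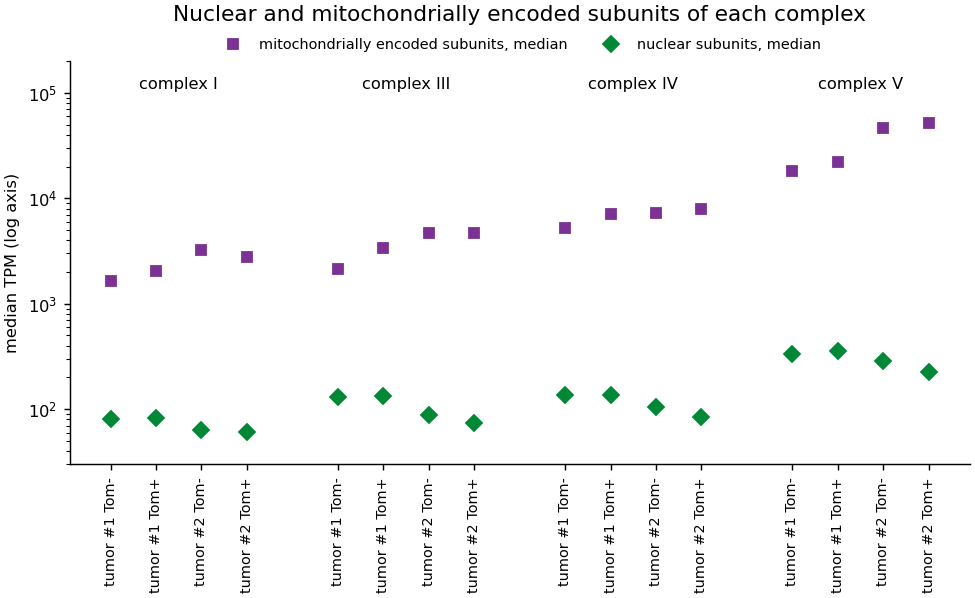
Median TPM (log axis) of mitochondrially encoded subunits (squares) and nuclear subunits (diamonds) of complexes I, III, IV and V in each library, with the isoforms at 0 included for complex IV. In tumor #2 the squares lie higher and the diamonds lower than in tumor #1 for all 4 complexes.

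Other genes of the pathway were counted from fixed lists. Of 39 tested genes for cytochrome c, cytochrome c1 and assembly of the complexes, 7 lay lower in tumor #2 without overlap (23.7% of all genes did) and 14 higher (44.8% of all genes), with a median of 0.13 against 0.20 for all genes. Cytochrome c (Cycs) was at 11.3, 13.2, 8.45 and 8.24 TPM and cytochrome c1 (Cyc1), a subunit of complex III named outside the rule, at 135, 161, 127 and 112 TPM, and both were lower in tumor #2 without overlap. In the comparison of Tom+ with Tom- cells, 0 of the 39 passed the adjusted threshold and 4 had an unadjusted p-value under 0.05 by limma, 2 higher (2.04% of all genes) and 2 lower (2.64% of all genes). Surf1 and Coa7, which take part in assembly of complex IV, were higher in Tom+ cells (differences 0.61 ± 0.15 and 0.96 ± 0.23, adjusted p = 0.936 by limma), and Cox14 and Cox19, also assembly factors of complex IV, lower (-0.65 ± 0.19 and -0.56 ± 0.17).

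Of 19 tested regulators and genes of mitochondrial transcription and replication, 6 lay lower and 6 higher in tumor #2 without overlap (31.6% each, against 23.7% and 44.8% of all genes), with a median of -0.020 against 0.20 for all genes. Ppargc1a, a coactivator that drives mitochondrial genes in muscle and brown fat, was at most 0.110 TPM and was not tested, and its relative Ppargc1b was at 1.74, 1.47, 1.42 and 1.30 TPM. Pprc1, the third member of that family, was at 48.2, 53.0, 112 and 147 TPM, higher in tumor #2 (1.33). Esrra, which encodes an estrogen-related receptor, was at 4.58, 3.82, 4.20 and 2.94 TPM. Tfam, which binds mitochondrial DNA and starts its transcription, was at 76.4, 74.8, 86.7 and 68.4 TPM and did not separate the tumors. Between Tom+ and Tom- cells, 1 of the 19, the polymerase subunit Polg2, had an unadjusted p-value under 0.05 by limma (0.93 ± 0.24, adjusted p = 0.936; 2.04% of all genes were higher at that threshold), and none passed the adjusted threshold.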

How the data were processed

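B220+ IgM+ Tom+ and Tom- splenocytes of 2 mice gave 4 libraries, sequenced as single reads of 60 bases. The authors made FASTQ files with CASAVA 1.8, trimmed them with Cutadapt, quantified them with Salmon (1.9 in the submitters' processing notes) on the GRCm38 transcriptome and deposited TPM per gene. How transcripts were summed to genes, and whether strand was used, is not given in the sources used here. Of the 93 genes, 40 overlap another annotated gene. The gene that drives Cre and 1 marker gene are not reported here. No depth is known, so no counting interval is given. The authors' edgeR test needs counts and was not run.

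Names and positions came from GENCODE M21, which holds 34652 of 34866 identifiers. The methods name an older release, and a further Atp5o identifier was not analysed here. Values were log2(TPM + 1). Tom+ was compared with Tom- by limma 3.58.1 (R 4.3.3) with a variance trend. The tumor was a block, since both libraries of a tumor come from 1 mouse. A prior run on simulated data required only that estimated differences followed the planted ones. How many genes the test can call was not judged from it. Adjustment was by Benjamini-Hochberg over all genes, with 1 residual and 2.21 prior degrees of freedom. P-values and SE thus combine the spread between these 2 pairs with a trend over all genes, and the trend has the larger weight. Tumors were compared by counts of libraries that do not overlap. Pseudogene copies were found with blastn 2.17.0 and 60-base stretches, and tables were made with Python 3.11.15.

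Genes named with values were those with the 3 highest and 2 lowest mean TPM of a complex, those past an unadjusted p-value of 0.05, the 5 most extreme in each direction of each comparison, complex II, isoforms, and the 5 with the most pseudogene expression. Others (Uqcrb, Ndufs3, Ndufs5, Ndufv1, Atp5e, Hbb-bs, Jchain, Cd3d, Cd68, S100a8, S100a9, Pprc1, Mterf3, Yy1, Gabpb1, Gabpb2, mt-Atp6, mt-Atp8, Atp5k, Ndufa6) were chosen after their values were seen. The genes and lists were chosen with earlier results of these data known. Alternatives were a fit without the block, a pseudocount of 0.1, the filter dropped or raised to a mean of 5 TPM, scaling by trimmed means (30% of log ratios and 5% of levels trimmed at each end), nuclear protein-coding genes alone, genes summed with their pseudogene copies, and each tumor or Tom group left out.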

Additional observations from a re-analysis of the deposited data

Results flagged for a closer look

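For 56 of the 88 genes, Tom+ minus Tom- had opposite signs in the tumors, and for 6 of them the log2 difference was at least 0.3 in size in both. Of all 11339 genes, 29.5% were lower and 21.6% higher in Tom+ cells of both tumors, so opposite signs were common in genes at large. The share of all genes with opposite signs past 0.3 was not counted. With 1 library per group in each tumor, none of these differences between the tumors was tested. Tumor #1 is given before tumor #2 in what follows. The median of the 88 genes was 0.043 and -0.21. Ndufs3, a core subunit of complex I, was higher and then lower in Tom+ cells (0.43 and -0.39), whereas Ndufv1, the core subunit that binds NADH, had the reverse order (-0.30 and 0.31). Of the genes for the c subunit, Atp5g1 gave 0.46 and -0.68 and Atp5g2 1.41 and -0.60. Cox6b2, the testis isoform with at most 2.67 TPM, gave 0.68 and -1.04. Atp5s gave -0.42 and 0.42. Of these 6 genes, Atp5g1 and Atp5g2 share over 50% of their coding stretches with pseudogenes.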

How the results depend on the processing

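No alternative gave a gene with an adjusted p-value under 0.05. Of the 2 genes with an unadjusted p-value under 0.05, 0 were left without the replicate block (the fit that ignores the paired libraries of a mouse), 0 without a filter, 0 with a mean TPM of at least 5 and 1 with trimmed-mean scaling, whereas 4 had one over nuclear protein-coding genes alone. With pseudogene copies, Atp5j no longer had one (0.185) and Ndufab1 did (0.0205). The replicate block changed no other call. For the tumors, trimmed-mean scaling gave 2 genes higher in tumor #2 without overlap (33.4% of all genes) and a median of -0.54, with 72 of the 88 genes and 34.9% of all genes lower. Tom- libraries alone gave 24 higher, a count of signs of single libraries that holds for 62.5% of all genes. The 76 genes with a mean of at least 20 TPM, a subset chosen after seeing the data, gave 2 higher without overlap. Of the 3791 nuclear protein-coding genes at that level, 1435 were higher. Over the scalings, the filters and the sums with pseudogene copies, 50 to 72 genes lay lower, beside 17.1% to 34.9% of all genes. With 1 tumor left out, the median difference of complex III between Tom+ and Tom- ranged from -0.30 to -0.025, and that of the 88 genes from -0.21 to 0.043, so the latter sign rested on tumor #2, as did those of complex I (-0.18 to 0.039), complex IV (-0.29 to 0.027), complex V (-0.27 to 0.082) and the assembly factors (-0.20 to 0.13). The median of complex I was also above 0 over nuclear protein-coding genes (0.0053), and that of complex III with pseudogene copies (0.0045). Apart from leaving out a tumor, alternatives turned the sign of the Tom+ minus Tom- difference of 13 named genes, none of which had passed the test. Over nuclear protein-coding genes alone these were Ndufb8 (0.023), Ndufa13 (0.00044), Sdhb (0.00052), Uqcrc1 (0.052), Cox6b1 (0.041), Ndufa4 (0.015), Ndufs7 (0.014) and Ndufab1 (0.010). With trimmed-mean scaling they were Uqcrc1 (0.024) and Cox6b1 (0.014), and with a pseudocount of 0.1 Atp5s (-0.0098). Summed with their pseudogene copies they were Ndufa11 (0.17), Uqcrh (0.020), Atp5g2 (-0.028), Cox6c (-0.25) and Ndufab1 (0.47). The cause of these changes was not tested. Each tumor is 1 mouse and the depth is unknown.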
